A study of Mus musculus with 2 samples.

Results

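Brain endothelial cells line the blood vessels of the midbrain, and 142 of them were selected on marker transcripts from 1736 kept cells in 2 single-cell libraries of mouse tissue. Kept cells had 200 or more genes and no more than 20% of their unique molecular identifiers (UMIs, each standing for 1 captured RNA molecule) on mitochondrially encoded genes. It was counted as endothelial when 8 genes, Cldn5, Flt1, Ly6c1, Ly6a, Slco1a4, Itm2a, Pglyrp1 and Egfl7, summed to at least 5 UMIs and at least 0.5% of its UMIs. That sum also had to exceed a sum of 5 mural cell genes and a sum of 6 genes of astrocytes, neurons, microglia and oligodendrocytes. The control library came from C57BL/6 mice injected with saline, called untreated in 1 of their labels. The MNPQ library came from C57BL/6 mice given paraquat (10 mg/kg) followed by maneb (30 mg/kg) by injection on 2 days of each week, over 3 weeks from the age of 10 weeks. The control mice had the same age and the same injection schedule. Both libraries were labelled as substantia nigra pars compacta taken from 3 males per group, although another label gives both sexes pooled. Each group had 1 library, so every difference below is between 2 libraries, treatment and preparation cannot be told apart, and no test was made.

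Endothelial cells of the brain form the blood-brain barrier. Tight junctions seal the gap between neighbouring cells, few vesicles cross the cell, and transporters carry glucose, amino acids and hormones inward while ATP-driven pumps return foreign compounds to the blood. This state is kept up by WNT ligands and by pericytes, and the genes in use differ along the vessel from artery through capillary to vein. Maneb and paraquat are a fungicide and a herbicide that are used together to model Parkinson's disease in mice.

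The control library held 73 endothelial cells among 882 kept cells, 8.28% (exact 95% binomial interval 6.54 to 10.3). The MNPQ library held 69 among 854, 8.08% (6.34 to 10.1). The shares differed by -0.197 percentage points (Newcombe interval -2.79 to 2.41), which is within counting error. Endothelial cells had a median of 2786 (control) and 3416 (MNPQ) UMIs, against 918 and 890 in the other kept cells. Mural cells, chosen by their own marker sum, were about as deep, with medians of 2687 and 3601 UMIs. Endothelial cells carried 14.6% and 16.5% of all kept UMIs. Their median mitochondrial share was 3.54% and 3.36%, against 7.37% and 7.41% in the other kept cells. No barcode of an endothelial cell occurred in both libraries.

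The rule separated the cells with few close to its limits. Members had a median rule sum of 90 (control) and 118 (MNPQ) UMIs. Their rule genes took a median of 2.96% and 3.03% of UMIs, with a lowest member of 0.921% and 0.951%. Just inside the UMI limit lay 3 control members and 1 MNPQ member with 5 to 9 UMIs, and just outside it lay 1 control cell and 0 MNPQ cells with 3 or 4 UMIs. No control cell and 1 MNPQ cell met the other conditions but had a larger sum of the genes of other cell types.

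The genes that chose the cells are shown first by the sequence before their start sites. ETS-family factors such as ERG and FLI1 act in all endothelial cells and bind a core of GGAA, so the 250 bases before each RefSeq start (GRCm38.p6) were searched for CGGAAG and AGGAAG on both strands. Matches, overlapping ones included, stand in capitals, and the bases run 5′ to 3′ on the strand of the gene.
Flt1 (chr5:147726012-147726261, minus strand): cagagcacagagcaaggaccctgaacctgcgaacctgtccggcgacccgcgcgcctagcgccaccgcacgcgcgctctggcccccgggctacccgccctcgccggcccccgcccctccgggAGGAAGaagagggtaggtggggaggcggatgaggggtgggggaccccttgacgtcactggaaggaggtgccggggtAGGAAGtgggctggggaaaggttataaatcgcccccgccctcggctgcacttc
Egfl7 (chr2:26580833-26581082, plus strand): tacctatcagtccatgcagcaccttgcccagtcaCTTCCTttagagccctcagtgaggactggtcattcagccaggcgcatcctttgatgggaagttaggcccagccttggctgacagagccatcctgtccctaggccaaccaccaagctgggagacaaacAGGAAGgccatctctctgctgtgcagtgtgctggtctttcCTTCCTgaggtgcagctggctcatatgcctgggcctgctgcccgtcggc
Pglyrp1 (chr7:18884440-18884689, plus strand): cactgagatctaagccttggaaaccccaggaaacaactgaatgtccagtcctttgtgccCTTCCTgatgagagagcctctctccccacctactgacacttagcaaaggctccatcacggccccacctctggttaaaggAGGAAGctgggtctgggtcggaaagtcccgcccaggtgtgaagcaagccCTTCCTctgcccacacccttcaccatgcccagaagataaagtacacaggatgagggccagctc
Slco1a4 (chr6:141856221-141856470, minus strand): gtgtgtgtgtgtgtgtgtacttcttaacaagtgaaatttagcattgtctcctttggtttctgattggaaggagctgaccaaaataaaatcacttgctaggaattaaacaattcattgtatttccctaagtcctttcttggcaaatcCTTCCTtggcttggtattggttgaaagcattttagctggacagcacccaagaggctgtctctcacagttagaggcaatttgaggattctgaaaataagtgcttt
Cldn5 (chr16:18776597-18776846, plus strand): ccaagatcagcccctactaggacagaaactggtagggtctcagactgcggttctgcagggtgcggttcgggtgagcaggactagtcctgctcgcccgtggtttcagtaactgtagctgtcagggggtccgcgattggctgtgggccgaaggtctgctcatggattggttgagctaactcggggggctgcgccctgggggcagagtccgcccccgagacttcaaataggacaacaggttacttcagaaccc
The window of Flt1 held 2 matches, the first of the Egfl7 windows 3, Pglyrp1 3, Slco1a4 1 and Cldn5 0. Of the 8 rule genes 7 had windows, 10 in all because Egfl7 and Ly6c1 have several starts, and 7 of the 10 (70%) held a match. Over all 32851 windows of 27025 genes the share was 39.2%. For 14 windows of 13 of the most enriched genes outside the rule it was 50%. The other Egfl7 windows held 1 and 0 matches, and the windows of Ly6c1 overlap. A match is a description of the letters and shows no binding.

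Cldn5, which encodes the main claudin of the tight junction, was the most abundant of the rule genes. Its level, as UMIs scaled to a total of 1000000 endothelial UMIs (CPM), was 7589 (control) and 9065 (MNPQ), from 2219 and 2924 UMIs. In the 5 other cell types defined by marker sums the highest level of Cldn5 was 65.9 CPM, in MNPQ neurons, from 6 UMIs. Ly6c1, a surface protein anchored by a lipid, stood at 4767 and 5469 CPM. The membrane protein gene Itm2a stood at 4764 and 5128 CPM. Flt1, the receptor VEGFR1, stood at 3153 and 2796 CPM. Slco1a4, an organic anion transporter of the barrier, stood at 2483 and 1916 CPM and had 1 UMI in each library outside endothelial cells of the compared types, both in microglia. Pglyrp1, a peptidoglycan-binding protein, stood at 1430 and 1051 CPM. Of the 8 rule genes 4, Cldn5, Ly6c1, Egfl7 and Itm2a, were higher in the MNPQ library and 4, Ly6a, Flt1, Slco1a4 and Pglyrp1, were lower. Their log2 ratios of MNPQ over control ran from -0.44 (Pglyrp1) to 0.26 (Cldn5), and nothing is read from them because they chose the cells.

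**Figure D1:**
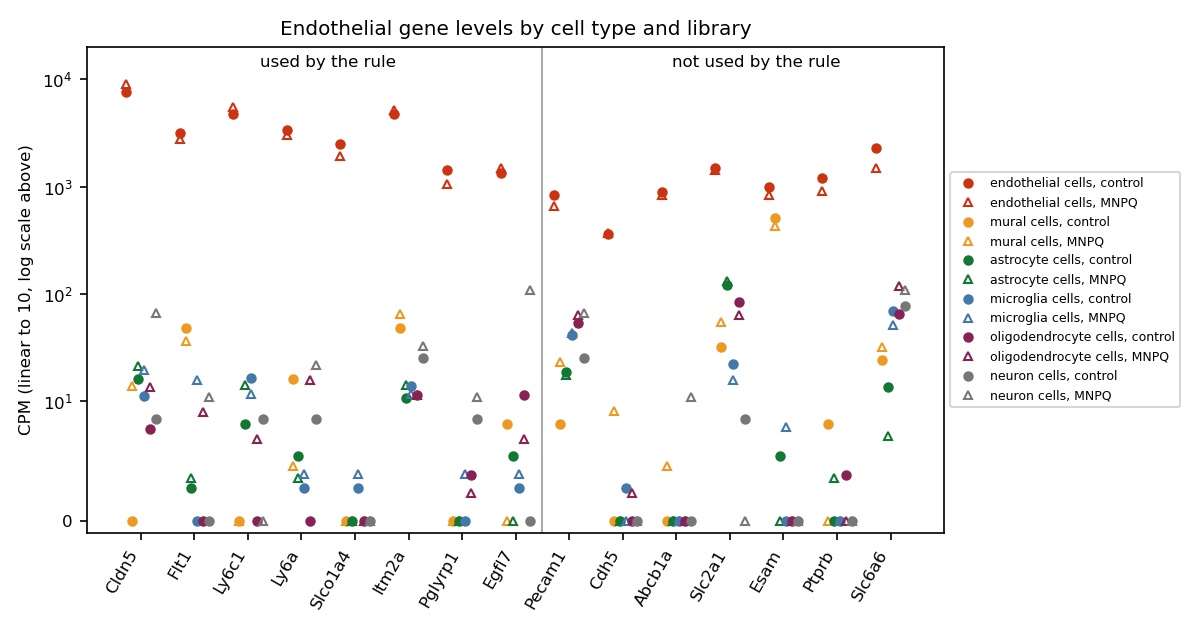
Level of 15 endothelial genes in 6 cell types of both libraries, in CPM of the cell type (vertical axis, linear up to 10 and logarithmic above); filled circles are the control library and open triangles the MNPQ library. The red endothelial symbols lie above all others for each gene, and Cldn5 stands at 7589 and 9065 CPM.

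Genes that the rule did not use gave the cells the same name, although all genes of chosen cells depend on the choice and these values are a description. All 30 other endothelial markers on a list were more than 10-fold higher in endothelial cells than in the other kept cells of both libraries. The smaller of the 2 log2 enrichments had a median of 6.24 over these genes, and its lowest value was 3.42. Abcb1a, the P-glycoprotein pump, stood at 896 and 840 CPM and had at most 1 UMI in any other compared type. Cdh5, the cadherin of endothelial junctions, stood at 366 and 369 CPM. Esam, an adhesion molecule of endothelial cells, stood at 992 and 828 CPM and was also present in mural cells, at 510 and 428 CPM. The glucose transporter gene Slc2a1 had UMIs in 95.9% of control and 97.1% of MNPQ endothelial cells, against 20.1% and 21.6% of astrocytes, whose median depths were 1352 and 1015 UMIs. Abcb1a had UMIs in 78.1% and 81.2% of endothelial cells and in 0 of 164 and 0 of 125 astrocytes.

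The 20 genes most enriched over the other kept cells included 9 of these listed markers. Among them were receptors of angiogenesis and vessel stability (Tek, Tie1, Robo4, Ptprb), transcription factors (Sox18, Gata2, Foxq1) and the arterial gene Gkn3. Across the 12 combinations of 6 cell types and 2 libraries, the levels most like those of Cldn5 were those of Sema3c, Sox17, Abcb1a, Srarp and Pglyrp1 (Pearson r of log2(CPM + 10) from 0.982 to 0.991). For Slco1a4 they were Paqr5, Hmcn1, Fgd5, Gata2 and Tie1 (r of 0.998 to 0.999). These points share libraries and the endothelial cells set both ends, so r is a description.

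Plvap, which forms the diaphragm of fenestrated vessels outside the barrier, had 0 UMIs in 73 control and 0 in 69 MNPQ endothelial cells, which allows a share of cells with a UMI of up to 4.11% and 4.35%. Sele and Selp, adhesion receptors of inflamed endothelium named after their values were seen, also had 0 UMIs in both libraries, with those same limits. Defining genes of neighbouring vessel cells were nearly missing. Of 10 pericyte genes, 4 were at 0 among control and 7 among MNPQ cells, and their sum was 59 and 9 UMIs. Rgs5 and Vtn of this list are also mural genes of the rule, so its low sum is partly set by the choice of cells. Of 8 vascular fibroblast genes, 7 and 8 were at 0.

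Some members also carried RNA of other cells. By short sums of 3 to 5 defining genes per type (such as Aqp4 and Gja1 for astrocytes, Mag and Mobp for oligodendrocytes), 1 control cell (46 UMIs of mural genes) and 8 MNPQ cells held at least 5 UMIs of another type and are called mixed. The count depends on the genes summed: with longer marker lists, 18 control and 20 MNPQ cells held at least 5 UMIs of 10 astrocyte genes, and 14 and 25 held at least 5 of 8 oligodendrocyte genes. The mixed MNPQ cells held genes of oligodendrocytes (4 cells, up to 343 UMIs in 1 of them), astrocytes (3 cells) or microglia (1 cell). Another 2 cells of each library had over 1% of their UMIs on hemoglobin genes and held 3049 of 3152 and 8729 of 8743 hemoglobin UMIs. The 8 oligodendrocyte markers summed to 223 UMIs with 2 at 0 (Mag and Mog) in the control, and to 824 UMIs with none at 0 in the MNPQ library. Without mixed and hemoglobin-rich cells, 70 control and 59 MNPQ cells remained, and some values below are also given without these doubted cells.

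Across genes the 2 endothelial profiles were close. Over 1838 genes with at least 60 UMIs and outside the rule, the median log2 ratio of MNPQ over control was 0.01. Pearson's r of log2(CPM + 10) across these genes was 0.934 between the libraries. Between control endothelial cells and control mural cells it was 0.503, and with control astrocytes 0.367. The genes were chosen for their UMIs in endothelial cells, which can by itself lower r with other types. The last 2 values are therefore a description only. Genes are not independent replicates. At least 2-fold higher in the MNPQ library were 20 genes (1.09%) and at least 2-fold lower 27 (1.47%).

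Many of the higher genes rested on 1 cell. Of the 20 higher genes, 15 had more than 20% of a library's UMIs in 1 cell or under 5 UMIs in a library, against 3 of the 27 lower genes. Among the 15, and named after their values were seen, were the hemoglobin genes Hbb-bt (32 and 535 UMIs, log2 ratio 3.92) and Hbb-bs (923 and 4291 UMIs, 2.08), which by construction lose most of their UMIs when the hemoglobin-rich cells are left out. Without mixed and hemoglobin-rich cells the counts were 3 higher and 25 lower genes.

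The remaining higher genes were led by Wbp2, a coactivator that binds WW domains (chromosome 11, 116078573 to 116086995, minus strand, mm10). It had 18 control and 59 MNPQ UMIs, a log2 ratio of 1.57 (95% counting interval 0.79 to 2.42). Without the doubted cells it had 16 and 41 UMIs, a ratio of 1.55. Lamtor4, a subunit of the Ragulator complex on lysosomes, had 16 and 51 UMIs (1.53, interval 0.70 to 2.44). Dbp, an output factor of the circadian clock, had 20 and 58 UMIs (1.39, 0.64 to 2.21). Hdgf, a growth factor found in the nucleus, had 18 and 45 UMIs (1.18, 0.36 to 2.06). Oaz2, which restrains polyamine synthesis, rested on more molecules, 87 and 177 UMIs (0.88, 0.50 to 1.27). The other 7 of the 12 highest, Ttyh2, Psmb4, Max, Lasp1, Rnpepl1, Tfrc and Mbp, ran from 0.83 to 1.02. Mbp, a myelin gene of oligodendrocytes, was the lowest of them at 159 and 311 UMIs, and without the doubted cells it had 153 and 165 (0.30, -0.02 to 0.63). Without those cells the interval of Lasp1 also held 0 (0.81, -0.08 to 1.72).

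Some of these ratios had counterparts in other cells of the same libraries. The log2 ratio of Dbp was 1.07 (0.69 to 1.45) in astrocytes and 1.04 (0.36 to 1.77) in mural cells. In microglia it was -0.96 (-3.07 to 0.79) from 11 and 4 UMIs. Wbp2 was at 0.87 (0.33 to 1.41) in astrocytes and 0.10 (-0.35 to 0.56) in oligodendrocytes. Lamtor4 was at 0.48 (-0.13 to 1.09) in astrocytes and -0.10 (-0.55 to 0.33) in microglia. Differences between cell types were not tested.

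The lowest ratio belonged to Gm42418, a noncoding transcript that overlaps a ribosomal RNA repeat (chromosome 17, 39846958 to 39848788, plus strand, mm10). It had 916 control and 253 MNPQ UMIs, 3133 and 784 CPM, a log2 ratio of -2.00 (-2.20 to -1.80). It was lower in the MNPQ library in each compared cell type, with ratios from -3.24 in oligodendrocytes to -1.18 in neurons. AY036118, annotated at the same locus on the other strand, had 54 and 23 UMIs (-1.37). Reads of the 2 cannot be told apart where the counting did not use strand. Malat1, an abundant noncoding RNA kept in the nucleus, had 14092 and 8938 UMIs (-0.80, interval -0.84 to -0.76) and was lower in all 5 other cell types, from -0.83 to -0.39.

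The protein-coding genes with the lowest ratios encode proteins of cell structure, signalling and the nucleus. Syne1, a giant protein that ties the nucleus to the cytoskeleton (chromosome 10, 5020917 to 5551482, minus strand), had 76 and 27 UMIs (-1.63, -2.33 to -0.98). Pnn, a splicing-associated protein, had 45 and 16 UMIs (-1.63). Arhgap29, a GTPase-activating protein that acts below RAP1 at endothelial junctions, had 96 and 37 UMIs (-1.52, -2.11 to -0.96). In mural cells Arhgap29 had 52 and 49 UMIs (-0.90, -1.49 to -0.31). Without the doubted cells the ratios were -1.93 for Syne1 and -1.34 for Arhgap29. Ptp4a2, Nrd1, Spag9, Mef2a, Btbd7 and Akap12, together with the transcript Gm9946, ran from -1.28 to -1.12.

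**Figure D2:**
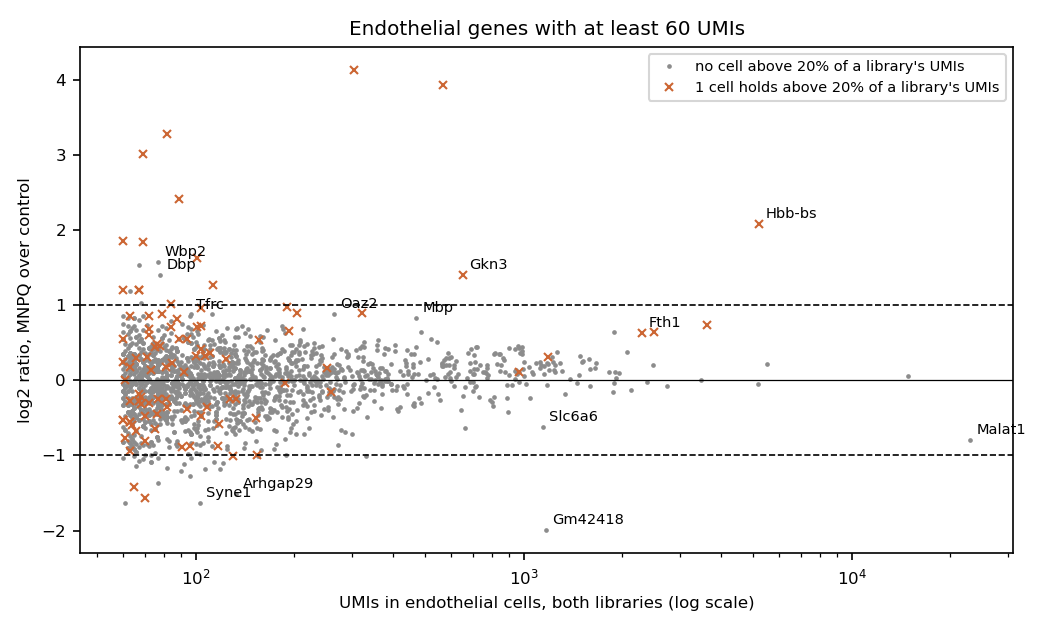
Log2 ratio of MNPQ over control (vertical) against the UMIs of a gene in both endothelial samples (horizontal, log scale) for 1838 genes; dashed lines mark 2-fold, and orange crosses are genes with more than 20% of a library's UMIs in 1 cell. Crosses make up most of the points above the upper line, while Gm42418 at -2.00 is the lowest point.

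Longer genes had lower ratios. The genomic length of 1837 of the compared genes was taken from the annotation, and its median was 16.5 kb. The 27 genes at least 2-fold lower had a median length of 81.0 kb, and the 20 higher ones 15.0 kb. The genes were split into 4 groups of near equal size by length. In the shortest group (0.297 to 6.29 kb) the median log2 ratio was 0.12 and 68.6% of 459 genes were above 0. In the next group it was 0.07, then -0.01, and in the longest group (40.9 to 767 kb) -0.24 with 28.5% of 460 genes above 0. The longest group held 18 of the 27 lower genes. Without the doubted cells the shortest and longest groups stood at 0.16 and -0.23.

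The same order appeared in the 5 other cell types. For the same genes with at least 20 UMIs in the type, the median of the shortest group ran from 0.03 in microglia to 0.32 in astrocytes. That of the longest group ran from -0.23 in microglia to -0.13 in neurons. The part of gene length in the gene list values below was not tested. Of the lists that follow, cell junctions had 8 of 14 genes in the longest group, VEGF and TIE signalling 10 of 15 and barrier transporters 12 of 26. Cytosolic ribosomal proteins had 68 of 75 genes in the shortest group, and the antioxidant list 10 of 19. Immediate early genes (11 of 13) and mitochondrially encoded genes (11 of 11) also lay in the shortest group, but their median ratios, given below, were under 0.

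Gene lists were described by their genes with at least 20 UMIs, beside all 4875 such genes outside the rule. The 24 lists held 13 to 80 genes each, of which the measured ones are counted here. Of the 4875 genes, 46.5% had a ratio above 0 and 53.5% below 0, 2.93% were at least 2-fold higher and 5.01% at least 2-fold lower, and the median was -0.03.

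Barrier transporters stood close to that background. Of 33 measured genes (46 listed) 13 were above 0, with a median of -0.07, and 0 differed 2-fold. Without the doubted cells 19 of 33 were above 0 with a median of 0.07, when 49.9% of all genes were above 0. Slc6a6, the taurine transporter (chromosome 6, 91684053 to 91759066, plus strand), was the most abundant, with 668 UMIs in 65 control cells and 479 in 63 MNPQ cells. It stood at 2284 and 1485 CPM, a log2 ratio of -0.62 (-0.79 to -0.45). Tfrc, the transferrin receptor that brings iron into the brain (chromosome 16, 32608920 to 32632794, plus strand), was the highest of the list, with 32 UMIs in 19 control cells and 64 in 27 MNPQ cells, a ratio of 0.86 (0.22 to 1.52). Slc38a5, a glutamine transporter, was the lowest at -0.88, but 46.7% of its 60 control UMIs lay in 1 cell.

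Well-known transporters of the barrier were not all alike. Slc2a1 had 433 and 457 UMIs (-0.06, -0.26 to 0.13; 0.03 without the doubted cells) and Abcb1a 262 and 271 (-0.09, -0.34 to 0.16). The lipid transporter gene Mfsd2a, which also restrains transcytosis, had 48 and 59 UMIs (0.16, -0.42 to 0.74). Named after its values were seen, the efflux pump gene Abcg2 had 223 and 188 UMIs (-0.39, -0.68 to -0.10). Chosen in the same way, the cationic amino acid transporter gene Slc7a1 had 86 and 132 (0.48, 0.07 to 0.89). The intervals of Slc2a1, Abcb1a and Mfsd2a hold 0, and those of Abcg2 and Slc7a1 do not. All of them cover counting error only and not the spread between cells.

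Of 20 measured junction genes (26 listed) 7 were above 0, and the median was -0.12. Tjp1, the scaffold ZO-1 of tight junctions (chromosome 7, 65296165 to 65527781, minus strand, 232 kb), had 114 UMIs in 42 control cells and 81 in 38 MNPQ cells, a ratio of -0.63 (-1.06 to -0.21). Afdn, a scaffold of adherens junctions 146 kb long, had 66 and 37 UMIs (-0.98, -1.60 to -0.37). Pecam1, an adhesion molecule, had 244 and 215 UMIs (-0.32, -0.60 to -0.05), and without the doubted cells 232 and 170 (-0.25, -0.55 to 0.04). Ocln had 103 and 102 UMIs (-0.16, -0.57 to 0.25) and Cdh5 107 and 119 (0.01, -0.38 to 0.40). Gja1, a connexin that also marks astrocytes and was named after its value was seen, was the highest at 1.75 from 7 and 26 UMIs. Of its MNPQ UMIs 30.8% lay in 1 cell.

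**Figure D3:**
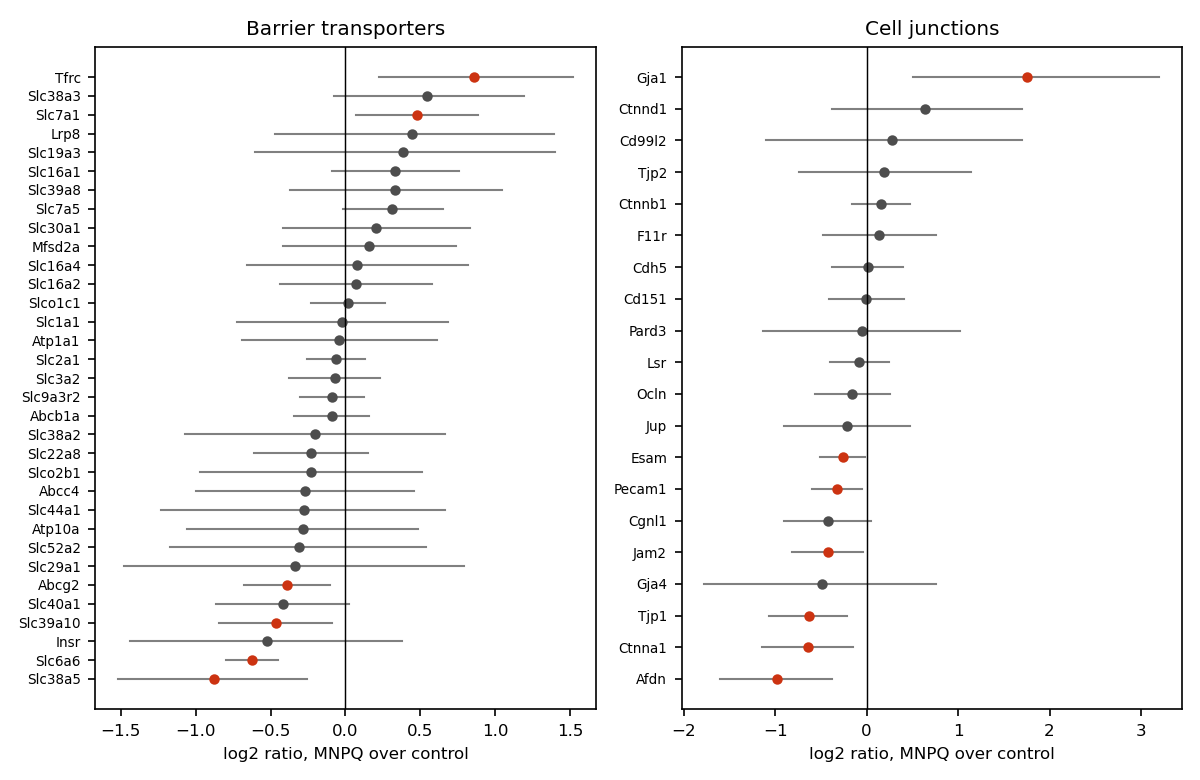
Log2 ratio of MNPQ over control with its 95% counting interval (horizontal bars) for the 33 measured barrier transporters (left) and the 20 junction genes (right); red points have an interval that leaves out 0. Tfrc at 0.86 and Slc38a5 at -0.88 end the left panel, and Gja1 at 1.75 and Afdn at -0.98 the right one.

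Genes of vesicles gave no firm direction. Of 17 genes of caveolae and vesicular transport 5 were above 0 (median -0.09), but without the doubted cells 8 of 17 (median -0.01) and with each cell weighted equally 10 of 17 (median 0.04). The lowest, Cavin2, a coat protein of caveolae, had 169 and 116 UMIs (-0.68, -1.04 to -0.34). Of 17 genes of the basement membrane and integrins 5 were above 0 (median -0.23), with Itgb1, the shared integrin beta subunit, at 115 and 87 UMIs (-0.54). Without the doubted cells 4 of 16 genes of that list were above 0 (median -0.26), and Itgb1 had 105 and 72 UMIs (-0.35, -0.80 to 0.10). Bsg, a glycoprotein rich in brain endothelium and the most abundant gene of that list, had 6890 and 7920 UMIs (0.06).

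Signalling lists were spread on both sides of 0. VEGF and TIE signalling had 9 of 19 genes above 0 (median -0.07). The receptor gene Tek had 112 and 124 UMIs (0.01), and the phosphatase gene Ptprb, which opposes it, had 350 and 294 (-0.39). WNT signalling had 11 of 19 above 0 (median 0.10), and Nkd1, a feedback inhibitor that WNT induces, had 52 and 92 UMIs (0.68). NOTCH and BMP signalling had 11 of 20 above 0 (median 0.22), with the coreceptor gene Eng at 165 and 239 UMIs (0.39) and Bmpr2 at 77 and 57 (-0.58). Of 22 endothelial transcription factors 9 were above 0 (median -0.21). The lowest was Foxp1 with 121 and 81 UMIs (-0.72), while Sox18 had 100 and 162 (0.55).

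Arterial genes lay together in few cells. The sum of Bmx, Gkn3, Vegfc, Sema3g and Efnb2 reached at least 10 UMIs in 7 control and 10 MNPQ cells, which held 61023 of 292406 and 94348 of 322567 endothelial UMIs. Gkn3, a secreted gastrokine of brain arteries (chromosome 6, 87383256 to 87388935, minus strand), made up 167 of 244 control and 486 of 599 MNPQ UMIs of that sum, so its place in these cells is set by their choice. The arterial list holds 13 measured genes outside the sum, and all 13 had a higher level in these cells than in the other endothelial cells of both libraries. Mgp, an inhibitor of calcification, had 61 of 67 and 136 of 137 UMIs in them. Clu, the chaperone clusterin, stood at 361 against 164 CPM in the control and at 307 against 294 CPM in the MNPQ library, so the size of the difference varied widely. Of 14 capillary genes 1, Sgms1, was higher in these cells in both libraries and 12 in neither. Of 10 venous genes 3 (Vcam1, Ephb4 and Vwf) were higher in both and 6 in neither, among them Slc38a5 with 0 of 60 and 0 of 36 UMIs. Car4 is on both the capillary and the venous list and was higher in these cells in neither library. The same count over all measured genes was not made, so these counts have no background to be read against. A cut in UMIs also favours deep cells. Genes of these lists are named here after their values were seen. The levels of Slco1a4 in these cells were 1819 and 1918 CPM, against 2658 and 1915 CPM in the other endothelial cells.

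Gkn3 was unevenly spread over cells. Over all endothelial cells it stood at 571 CPM (control) and 1507 CPM (MNPQ, log2 ratio 1.40, 1.14 to 1.66), but 28.7% and 39.5% of its UMIs lay in 1 cell. That cell held 48 Gkn3 UMIs among control cells and 192 among MNPQ cells. Leaving out the doubted cells gave 119 and 429 UMIs (2.05, 1.75 to 2.35). The MNPQ total fell by less than its highest cell holds, so that cell was kept. The control total fell by as much as its own highest cell holds. The higher ratio is therefore not read as a cleaner value, and the part of single cells in it was not tested. UMIs of Gkn3 occurred in 16 of 73 control and 14 of 69 MNPQ cells. The arterial list as a whole had 9 of 18 genes above 0 (median 0.05), and Bmx, a kinase of arterial cells, had 22 and 21 UMIs (-0.21, -1.14 to 0.72), and without the doubted cells 18 and 18 (0.20, -0.83 to 1.22). The capillary list had 6 of 14 above 0 (median -0.06) and the venous list 4 of 10 (median -0.24). At least 10 UMIs of Slc38a5, Vwf, Nr2f2, Vcam1 and Lcn2 together occurred in 3 control and 5 MNPQ cells, of which 2 and 1 were also among the arterial cells.

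**Figure D4:**
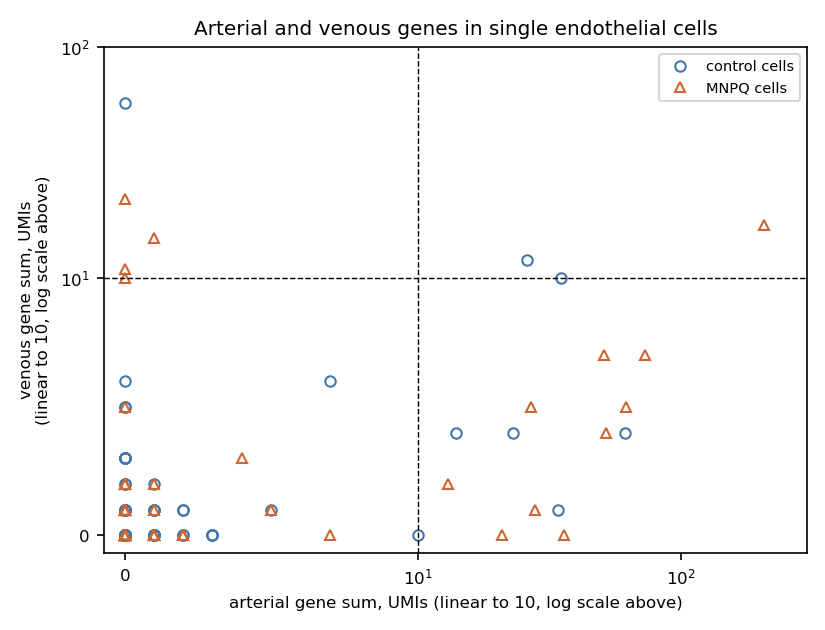
UMIs of 5 arterial genes (horizontal) and 5 venous genes (vertical) in each of 73 control and 69 MNPQ endothelial cells; both axes are linear up to 10 and logarithmic above, and dashed lines mark 10 UMIs. Most cells lie at or near 0 on both axes, 7 control and 10 MNPQ cells reach 10 on the arterial axis, and the highest stand at 61 and 206.

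Genes of inflammation gave no firm direction. Of 13 measured genes of inflammatory activation (29 listed) 3 were above 0 and 10 below (median -0.06). Without the doubted cells 7 of 13 were above 0 (median 0.09). Cxcl12, the most abundant, had 422 and 379 UMIs (-0.30, -0.50 to -0.09). Il6st, the lowest with at least 60 UMIs, had 34 and 26 (-0.53, -1.32 to 0.25). Vcam1, a receptor for leukocytes, had 26 UMIs in 6 control cells and 46 in 8 MNPQ cells (0.68, -0.04 to 1.43), and 46.2% and 41.3% of them lay in 1 cell. Leaving out the doubted cells gave 26 and 44 UMIs (0.95, 0.22 to 1.71). Vcam1 UMIs were found in 8.22% and 11.6% of endothelial cells, below the 40.9% and 40.0% of astrocytes, which express the gene. Of 32 MHC class I and interferon genes 17 were above 0 (median 0.03). H2-D1, an MHC class I heavy chain, had 432 and 374 UMIs (-0.35) and without the doubted cells 407 and 319 (-0.16, -0.37 to 0.06). Psme1, an activator of the proteasome, had 45 and 80 UMIs (0.69). Named after their values were seen, Ifit1 had 17 and 39 UMIs (1.06) and Ifit3 5 and 19 (1.78), both interferon-induced genes.

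Stress lists leaned on few genes. Of 18 immediate early genes, which also respond to tissue dissociation, 7 were above 0 (median -0.21), and Ier3 had 52 and 31 UMIs (-0.89), or 50 and 29 without the doubted cells (-0.59, -1.30 to 0.10). Of 14 glucocorticoid-responsive genes 6 were above 0 (median -0.06). Of 16 heat shock genes 8 were above 0 (median 0.02), and the endoplasmic reticulum chaperone gene Hspa5 had 88 and 61 UMIs (-0.67). Cryab, the highest at 2.41 from 13 and 76 UMIs, is also a gene of oligodendrocytes, and without the doubted cells it had 10 and 7 UMIs (-0.32).

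Antioxidant, glutathione and metal-binding genes lay mostly above 0, at 26 of 31 measured (39 listed) with a median of 0.22. Without the doubted cells 28 of 31 lay above 0 (median 0.26). The metallothionein gene Mt1 had 280 and 410 UMIs (0.41, 0.19 to 0.63), while Mt2 had 114 and 113 (-0.15). Fth1, the ferritin heavy chain, had 851 and 1449 UMIs (0.63), but 28.8% of the MNPQ UMIs lay in 1 cell, and without the doubted cells it had 796 and 708 UMIs (0.03). Named after their values were seen, the lipid peroxide reductase gene Gpx4 had 288 and 430 UMIs (0.44, 0.22 to 0.66). The peroxiredoxin gene Prdx1 had 188 and 282 (0.44, 0.17 to 0.72) and Gstp1, a glutathione transferase, 12 and 46 (1.80, 0.86 to 2.85). In astrocytes Mt1 stood at 8175 and 11208 CPM, a ratio of 0.46, and Fth1 at 0.48.

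Enzymes of monoamine and aldehyde metabolism form part of the barrier, since they break down amines and L-DOPA in the vessel wall. Of 8 measured genes (15 listed) 6 were above 0 (median 0.42). Ddc, which turns L-DOPA into dopamine (chromosome 11, 11814101 to 11898144, minus strand), had 17 UMIs in 14 control cells and 33 in 17 MNPQ cells, a ratio of 0.82 (-0.07 to 1.75). It was seen in 19.2% and 24.6% of endothelial cells, but in 0 of 164 and 2 of 125 astrocytes. Maoa, which oxidises amines, had 108 and 83 UMIs (-0.52, -0.95 to -0.10), and without the doubted cells 102 and 74 (-0.27, -0.72 to 0.18). Th and the dopamine transporter gene Slc6a3, also named after their values were seen, had 0 UMIs in both libraries' endothelial cells.

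Genes of protein synthesis lay nearly all on 1 side of 0. Of 77 cytosolic ribosomal protein genes 74 were above 0 (median 0.21), and without the doubted cells 77 of 77 (median 0.30). Together they made up 98993 CPM of control and 113654 CPM of MNPQ endothelial RNA. Of 35 nuclear-encoded subunits of complexes III to V 28 were above 0 (median 0.12), and of 36 complex I subunits 25 (median 0.07). Paraquat is known to cycle electrons with flavoenzymes, complex I among them. Mitochondrially encoded genes leaned the other way, with 3 of 12 above 0 (median -0.09), and mt-Nd4l, a complex I subunit, had 39 and 25 UMIs (-0.78), or 35 and 18 without the doubted cells (-0.76, -1.67 to 0.10). Of 16 glycolysis genes 13 were above 0 (median 0.20), and Aldoc, the highest with at least 60 UMIs, had 37 and 67 UMIs (0.72), 41.8% of the MNPQ ones in 1 cell, and 37 and 36 without the doubted cells (0.16). Of 16 genes of vascular tone and haemostasis 8 were above 0 (median 0.03), and the vasoconstrictor gene Edn1 had 82 and 63 UMIs (-0.52).

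**Figure D5:**
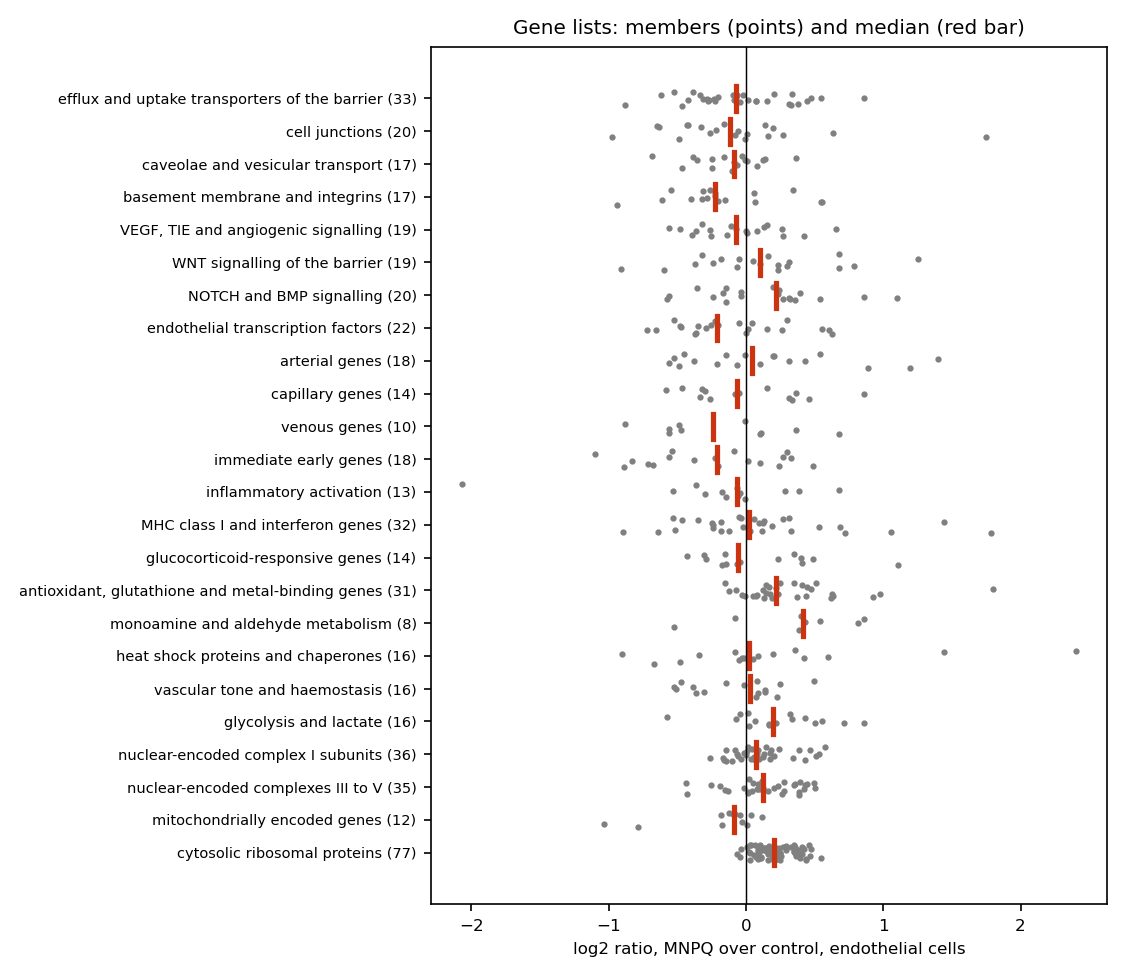
Log2 ratio of MNPQ over control in endothelial cells (horizontal) for each measured gene of 24 lists (points, spread vertically for sight) with the median of the list (red bar) and the number of measured genes in brackets. Cytosolic ribosomal proteins form a tight group with 74 of 77 points above 0, while barrier transporters and junction genes lie around 0.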

How the data were processed

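Single-cell libraries were made with 10x Genomics Chromium, per the labels. The deposited values are UMI counts for each gene in each barcode, which the headers of the deposited files trace to Cell Ranger 3.0.2, with mm10 per the submitters' processing notes; how barcodes were chosen is not given in the sources used here. Per the labels' protocols, papain and trituration released the cells, which can favour some cell types.

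Cell filter and rule stand in the report. Members, gene lists and named genes were chosen with earlier results of these data known. Cells outside the rule were assigned to 5 other types by their largest marker sum (at least 5 UMIs and 0.5%). UMIs were summed per library and scaled to CPM. Ratios have exact conditional binomial 95% intervals, shares Clopper-Pearson ones, and a count of 0 allows 3 counts. All cover counting error only. The ratio intervals alone were tested on simulated data, which were pooled counts without spread between cells. UMIs totalled 292406 in control and 322567 in MNPQ endothelial cells (2209810 and 2061939 over all barcodes).

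Named were the rule genes, the 20 most enriched genes, and the 12 highest and 12 lowest ratios among genes with at least 60 UMIs, at least 5 in each library and at most 20% in 1 cell. A list's highest, lowest and most abundant members and a few barrier genes were named too. Coordinates and lengths come from GENCODE M21 (same assembly); all 119 named genes were found. Scrublet called 9 control and 6 MNPQ doublets, 3 endothelial in each, which were kept. Alternatives covered filters, the rule's limits, doublets, scaling, cell weights, thinning to 1000 UMIs and UMI minimums. Leaving out mixed and hemoglobin-rich cells was chosen after seeing the data. Python 3.11.15, NumPy 2.4.6, SciPy 1.17.1, scanpy 1.11.5 and matplotlib 3.10.9 were used.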

Additional observations from a re-analysis of the deposited data

Results flagged for a closer look

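Among the named genes, 4 had counting intervals on opposite sides of 0 in endothelial cells and in another cell type of the same 2 libraries, and these differences were not tested. Cxcl12, a chemokine, had a log2 ratio of MNPQ over control of -0.30 in endothelial and 1.11 in mural cells. Ier3 stood at -0.89 in endothelial and 1.58 in mural cells. Slc6a6 stood at -0.62 in endothelial cells and 0.86 in oligodendrocytes. Ttyh2 stood at 1.02 in endothelial cells and -0.85 in astrocytes.

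Among barcodes outside the cell filter, 1 of 111 in the MNPQ library met the rest of the endothelial rule, against 0 of 223 in the control library. It was left out for having over 20% mitochondrial UMIs.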

How the results depend on the processing

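Of 17 alternatives, 10 gave a share of endothelial cells, and in these the share difference stayed within its counting interval. The number of genes at least 2-fold higher (20) fell to 10 without Scrublet doublets, 7 without mixed cells and 3 without mixed and hemoglobin-rich cells. With each cell weighted equally 46 genes were higher and 60 lower (27 in the report). Thinned to 1000 UMIs, with 277 genes left, 7 were higher and 1 lower, and the median over genes was 0.19. A minimum of 30 UMIs gave 71 higher and 114 lower, and a minimum of 120 gave 4 and 6. Of 381 list medians, 379 stayed within the counting spread of their members. That limit is loose, because genes with few UMIs have wide counting intervals, and a list median can change sign within it. The count of 379 is therefore not read as stability of the list medians. With equal cell weights the mitochondrially encoded list moved to -0.27 and the ribosomal list to 0.45. Of the list medians 31 took the other sign, and of 1504 gene ratios 48 did. For 3 of these 48 the counting interval over all cells leaves out 0: Cryab to -0.46 and Aldoc to -0.00534 without Scrublet doublets, and Esam to 0.13 after thinning. No paired analysis was possible because each group had 1 library. Leaving out a replicate was not possible for the same reason. Depth limits precision: with 17 and 33 UMIs the interval of Ddc ran from -0.07 to 1.75.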
